A study of Mus musculus with 32 samples.

Results

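The genes described here encode the subunits of glutamate and GABA receptors. They were taken by symbol from the array's annotation: the ionotropic glutamate families (Gria, Grik, Grin2 and Grin3, Grid), the metabotropic glutamate family (Grm), the GABA-A families (Gabra, Gabrb, Gabrg, Gabrd, Gabre, Gabrq, Gabrp and Gabrr) and the GABA-B pair (Gabbr). The rule found 40 genes, each with 1 probe, of 19505 genes measured, of which 22 belong to glutamate receptors and 18 to GABA receptors. Other members of these families, such as the obligate NMDA subunit gene, were not analysed here. The arrays measured total RNA of male wild-type C57BL/6J mice aged 6 to 12 weeks in 8 groups of 4 arrays. The groups are cerebrum control, cerebrum on day 1, day 3 and day 7 after cerebral photothrombosis (cPT), spinal cord control, and spinal cord on day 1, day 3 and day 7 after spinal cord photothrombosis (scPT). In photothrombosis a dye in the blood is activated by light, which clots the vessels of the lit area and makes it ischaemic. The labels name no allele or other agent, and do not say whether controls had surgery, which piece of cerebrum or cord was taken, or that each array is a separate animal, so the p-values reflect only how far these arrays spread, which may be technical.

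Glutamate opens AMPA, kainate and NMDA channels, which carry most fast excitation in brain and cord, and acts more slowly on the G-protein coupled metabotropic receptors. GABA opens the GABA-A chloride channels, assembled from alpha, beta and a further subunit such as gamma or delta, and acts on the GABA-B receptor, a pair of G-protein coupled subunits. Which subunits a neuron makes sets how quickly its receptors open, what ions pass and which drugs bind, and several subunits are also made by astrocytes.

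The RefSeq promoter table (GRCm38.p6) lists 30 of the 40 genes, with 35 windows around their starts. The 250 bases before the start are shown for 4 genes on which the results turn: Gabrb2 and Grm2, which had the largest differences between the control tissues, Gabra5, which had the largest fall in the injured cord on day 7, and Grm3, which had the largest on day 1 and day 3. They are written 5′ to 3′ along the gene's strand. Capitals mark 3 motifs, each searched on both strands. The GC box was searched as the letters GGGCGG and their reverse complement. The TATA box was searched as the letters TATAAA. The left part of the RE1 element, which the neuronal repressor REST is known to bind, was searched as the letters TTCAGCACC.
Gabrb2, chr11:42420190-42420439, plus strand: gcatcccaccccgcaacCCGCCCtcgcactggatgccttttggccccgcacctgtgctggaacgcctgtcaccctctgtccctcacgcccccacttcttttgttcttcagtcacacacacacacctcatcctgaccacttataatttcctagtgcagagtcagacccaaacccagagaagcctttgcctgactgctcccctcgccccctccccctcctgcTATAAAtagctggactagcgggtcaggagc
Grm2, chr9:106656110-106656359, minus strand: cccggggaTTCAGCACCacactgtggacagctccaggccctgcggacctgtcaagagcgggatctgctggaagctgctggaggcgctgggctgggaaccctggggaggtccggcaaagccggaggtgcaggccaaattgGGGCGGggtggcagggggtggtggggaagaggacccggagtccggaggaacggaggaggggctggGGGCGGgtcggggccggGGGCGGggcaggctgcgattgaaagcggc
Gabra5, chr7:57510060-57510309, minus strand: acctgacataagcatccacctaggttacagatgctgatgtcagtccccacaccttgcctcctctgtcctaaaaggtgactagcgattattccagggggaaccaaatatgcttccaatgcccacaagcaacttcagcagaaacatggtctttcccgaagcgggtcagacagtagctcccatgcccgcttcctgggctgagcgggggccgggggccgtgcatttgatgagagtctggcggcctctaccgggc
Grm3, chr5:9725353-9725602, minus strand: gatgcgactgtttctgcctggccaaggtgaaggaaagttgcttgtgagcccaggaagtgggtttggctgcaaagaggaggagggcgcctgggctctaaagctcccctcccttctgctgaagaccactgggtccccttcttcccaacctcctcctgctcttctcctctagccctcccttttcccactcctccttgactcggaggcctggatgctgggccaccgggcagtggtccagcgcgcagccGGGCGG
Gabrb2 has 3 listed starts, of which the first is shown, with 1 GC box and 1 TATA box. The Grm2 stretch holds 3 GC boxes and the RE1 left part, the Grm3 stretch 1 GC box, and the Gabra5 stretch none of the letters searched. Over the full windows on both strands, the GC box was in 17 of 35 windows of receptor genes, 48.6%, against 35.7% of 32851 windows of all genes. The TATA box was in 11.4% against 13.6%. The RE1 left part was in 2.86%, which is the Grm2 window alone, against 0.371%, and the CRE palindrome TGACGTCA was in 0 windows against 1.79%. The median GC content was 59.7% in the receptor windows and 52.7% in all windows, and the median number of CpG sites 12 against 7. These matches describe the letters of the windows and not bound sites. Grin2b, which is described below, is not in the table.

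All values are on the log2 scale and relative, and the base of the log is taken as 2 because no label states it. Each probe was centred before deposit, so that 0 is the probe's median over the 16 arrays of controls and day 1; a value therefore gives no level, and genes cannot be ranked by abundance. A gene was called when its adjusted p, from limma's moderated test with Benjamini-Hochberg adjustment over all 19505 genes, was under 0.05. The arrays of day 3 and day 7 were centred apart, and their offset against the controls was rebuilt per probe; to be called there, a difference had to exceed a bound of at least 0.120 on day 3 and 0.145 on day 7, the remaining doubt in that offset. In bulk tissue, fewer cells of a type and less RNA per cell cannot be told apart. The tissue labels were checked against markers: all 7 measured markers of cortical excitatory neurons were lower in the control cord (median difference -4.06) and 7 of 8 markers of motor and glycinergic neurons were higher (median 3.13). The 10 skeletal muscle genes were all higher in the control cord, with a mean value of 3.63, 3.10, 1.27 and 0.32 in its 4 arrays and at most 1.15 in any other array. The 10 thalamic genes also split the cerebrum controls, with means of 0.37, -0.17, -0.83 and -0.48, of which the first lies in the range of the injured cerebrum, 0.33 to 0.70, and the others below it. Array weights ran from 0.225 for cord day 3 replicate 1 to 1.82. The sample titles of each group come from a number range of their own; should these ranges be batches, they cannot be told apart from the groups.

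The first comparison asks how the receptor make-up of the 2 tissues differs without injury. In the control cord, 22 of the 40 receptor genes were lower than in the control cerebrum and 4 were higher, where 34.8% of all genes were called, 17.6% lower and 17.2% higher. The median difference of the receptor genes was -0.66 and that of all genes -0.02. The arrays of the 2 tissues did not overlap for 22 genes below and 2 above, against 15.7% and 15.8% of all genes. The largest differences lay in the AMPA, NMDA, metabotropic and GABA-A beta genes.

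Among the AMPA genes, Gria1, Gria2 and Gria3 were lower in the cord by similar amounts, -2.55 ± 0.23 (SE), -2.63 ± 0.21 and -2.44 ± 0.22. Gria4, the fourth subunit gene of this channel, differed by 0.24 ± 0.19 (adjusted p = 0.349). Gria2 encodes the subunit that limits calcium entry through the channel. It read 1.35, 1.47, 1.78 and 1.54 in the cerebrum controls and -0.76, -1.76, -0.81 and -1.03 in the cord controls, with no overlap.

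The NMDA genes went both ways. Grin2b, a glutamate-binding subunit gene known for slow channel closing, read 1.34, 1.43, 1.53 and 1.37 in the cerebrum controls and -1.03, -1.88, -1.07 and -1.57 in the cord controls. The cerebrum arrays lay close together and all cord arrays lay far below them, a difference of -2.80 ± 0.22 (6.99-fold lower, adjusted p = 9.64e-12). Grin2a and Grin2c were lower as well, by -2.44 ± 0.17 and -0.88 ± 0.17. Grin2d, whose channels are less blocked by magnesium, read -0.27, -0.41, -0.92 and -0.65 in the cerebrum controls against 0.29, 0.02, 0.68 and 0.35 in the cord controls. All cord arrays lay above all cerebrum arrays, and the difference was 0.90 ± 0.15 (1.86-fold higher, adjusted p = 1.82e-05). Grin3b, a glycine-binding subunit gene known from motor neurons, read -0.96, -0.41, -0.26 and -0.56 in the cerebrum and 0.44, 0.02, 0.22 and -0.02 in the cord controls. It was 1.64-fold higher in the cord (0.71 ± 0.15, adjusted p = 0.000192), again without overlap. Grin3a, its close relative, differed by 0.59 ± 0.24 and did not pass (adjusted p = 0.0554).

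Of the kainate genes, Grik2, Grik3 and Grik5 were lower in the cord, by -0.60 ± 0.16, -1.61 ± 0.14 and -1.39 ± 0.11, Grik4 did not pass at 0.30 ± 0.14 (adjusted p = 0.107), and Grik1 was higher by 1.11 ± 0.42 (adjusted p = 0.0379). The Grik1 call rests on cord controls that spread widely, at 0.01, 2.15, 0.33 and 1.63, and overlap the cerebrum controls at 0.31, -0.03, -0.20 and -0.39. It was not called with cerebrum controls 1 and 2, cerebrum controls 3 and 4 or cord controls 3 and 4 alone (adjusted p = 0.236, 0.0570 and 0.0939). The 5 measured genes of Schwann cells and dorsal root ganglion, which lie beside the cord, split the same cord controls in the same way, with means of 0.28, 3.12, 0.20 and 2.38. Their means were 2.23, 2.12, 0.71 and 0.43 on day 1, 2.49, 2.78, 2.15 and 1.44 on day 3 and 0.27, 1.12, 1.66 and 1.28 on day 7 in the cord, and their part in the Grik1 values was not tested. Grid1, a delta-family gene whose protein binds cerebellins across the synapse, was lower by -0.97 ± 0.12 (adjusted p = 4.01e-08).

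Among the metabotropic genes, Grm2, a presynaptic brake on glutamate release, had the largest difference. It read 1.41, 1.41, 2.15 and 2.17 in the cerebrum controls and -1.97, -2.63, -1.48 and -1.77 in the cord controls. That is 13.4-fold lower in the cord (-3.75 ± 0.21, adjusted p = 1.9e-15), and the cerebrum controls themselves form a lower and a higher pair. Grm3, the closest relative of Grm2 and known also from astrocytes, was lower by -1.58 ± 0.28, and Grm5, which signals through calcium release, by -1.41 ± 0.18. Grm4, Grm6 and Grm7, of the remaining Gi-coupled subgroup, differed by -0.01, -0.10 and -0.23 and did not pass (adjusted p = 0.980, 0.576 and 0.379).

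For the GABA-A genes the beta family stood out in size. Gabrb2, the beta subunit gene of the most common receptor type in the forebrain, read 1.46, 1.50, 1.46 and 1.48 in the cerebrum controls and -2.57, -2.89, -2.20 and -2.39 in the cord controls. The cerebrum arrays were almost the same and every cord array was far lower, a 15.9-fold difference (-3.99 ± 0.19, adjusted p = 7.81e-17). Gabrb1 was lower by -0.98 ± 0.23. Of the 5 alpha genes, Gabra3, Gabra4 and Gabra6 were lower, by -1.17 ± 0.18, -1.85 ± 0.14 and -0.87 ± 0.24, while Gabra2 and Gabra5 did not pass at -0.24 ± 0.29 and -0.47 ± 0.21. Gabra6 is known from cerebellar granule cells. Its cerebrum controls ran from 1.21 and 0.85 in replicates 1 and 2 to 0.33 and 0.08 in replicates 3 and 4. With the latter pair alone it was not called (-0.46, adjusted p = 0.230). The 10 genes of cerebellar granule and Purkinje cells had means of 0.47, 0.33, 0.16 and -0.14 in the cerebrum controls. Their part in the Gabra6 values was not tested. Gabrd and Gabrg3 were lower, by -0.71 ± 0.14 and -1.01 ± 0.20, and Gabbr1 and Gabbr2, the obligate partners of the GABA-B receptor, by -0.47 ± 0.10 and -1.44 ± 0.15. The 3 rho genes, Gabrr1, Gabrr2 and Gabrr3, known from the retina, were at -0.21, 0.13 and -0.27 and did not pass.

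Gabrq, the theta subunit gene, was the GABA receptor gene that was higher in the control cord (1.22 ± 0.32, adjusted p = 0.0032). Its cord controls read 0.73, 0.31, 0.31 and 0.44, while its cerebrum controls split into 0.62 and -0.04 against -1.99 and -1.67. Against cerebrum controls 1 and 2 alone the difference was 0.16 (adjusted p = 0.663), and against 3 and 4 alone 2.28 (adjusted p = 7.68e-10). Controls 1 and 2 were also above controls 3 and 4 in the mean of the thalamic genes given above, and of other lists. The means were 1.43, 1.43, 0.61 and 1.10 for the genes of hypothalamus and pituitary, and 1.99, 1.62, 0.37 and 1.25 for striatal genes. Those of cortical excitatory neurons went the other way, at 1.73, 1.97, 2.44 and 2.29. The part of these lists in the Gabrq values was not tested.

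**Figure D1:**
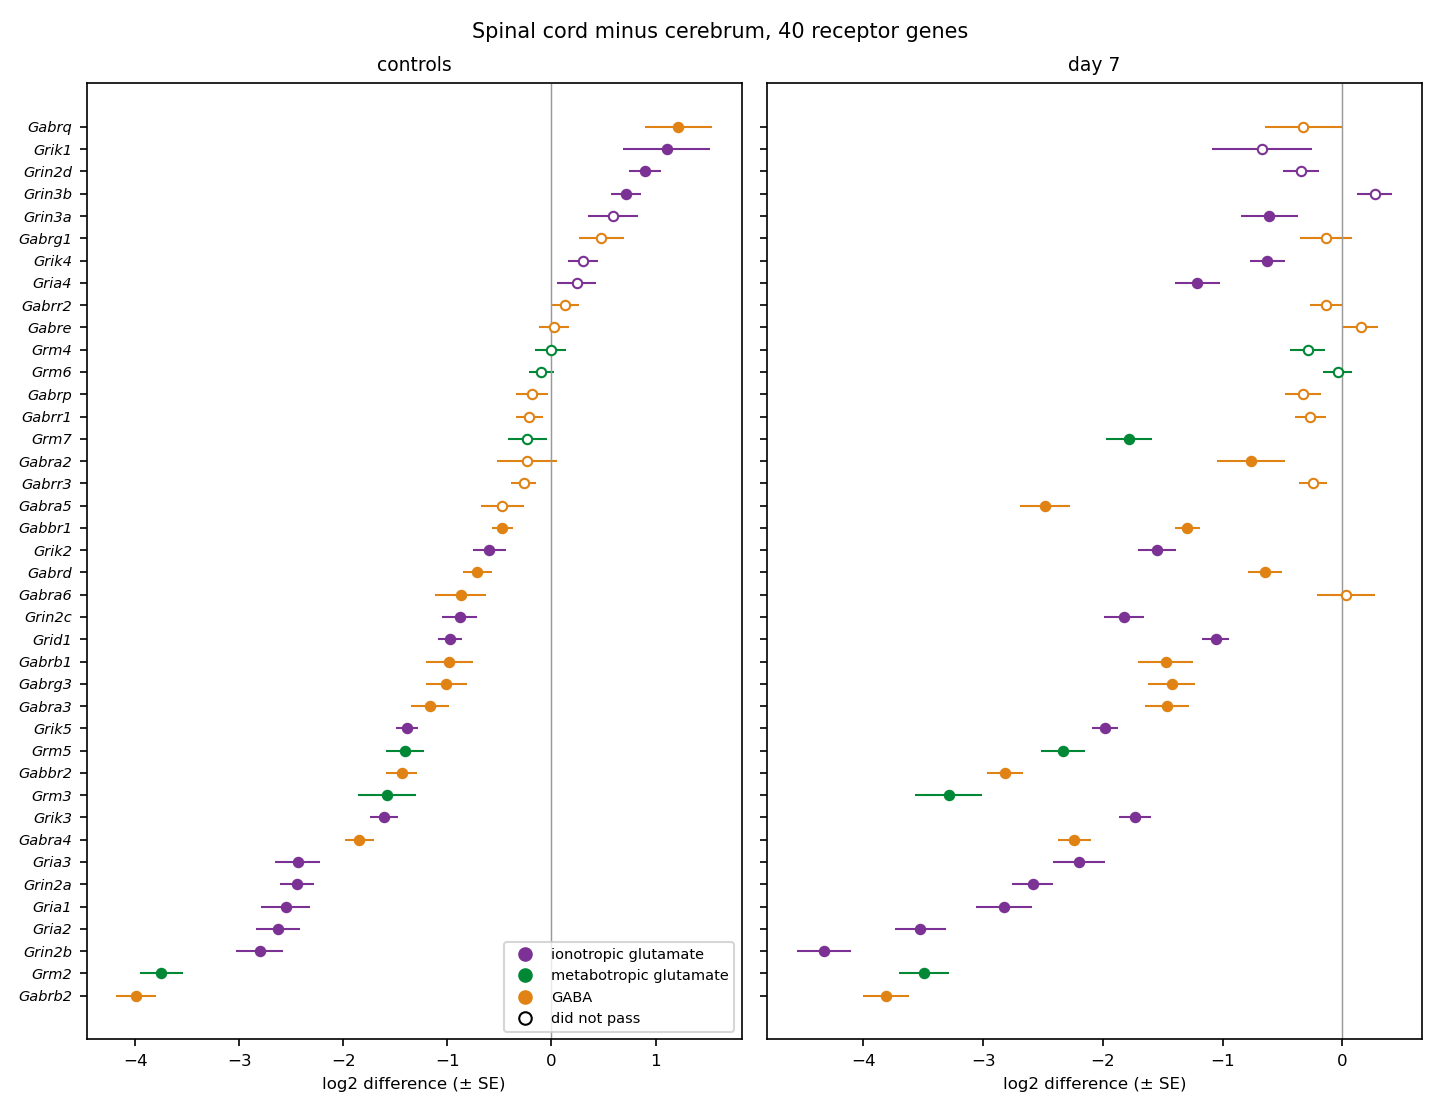
Spinal cord minus cerebrum for the 40 receptor genes, as log2 difference ± SE from the limma fit, in controls (left) and on day 7 (right), 4 arrays per group, ordered by the control difference; filled points passed the adjusted p, open points did not. In controls the points run from -3.99 for Gabrb2 to 1.22 for Gabrq, and on day 7 from -4.33 for Grin2b to 0.27 for Grin3b.

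**Figure D2:**
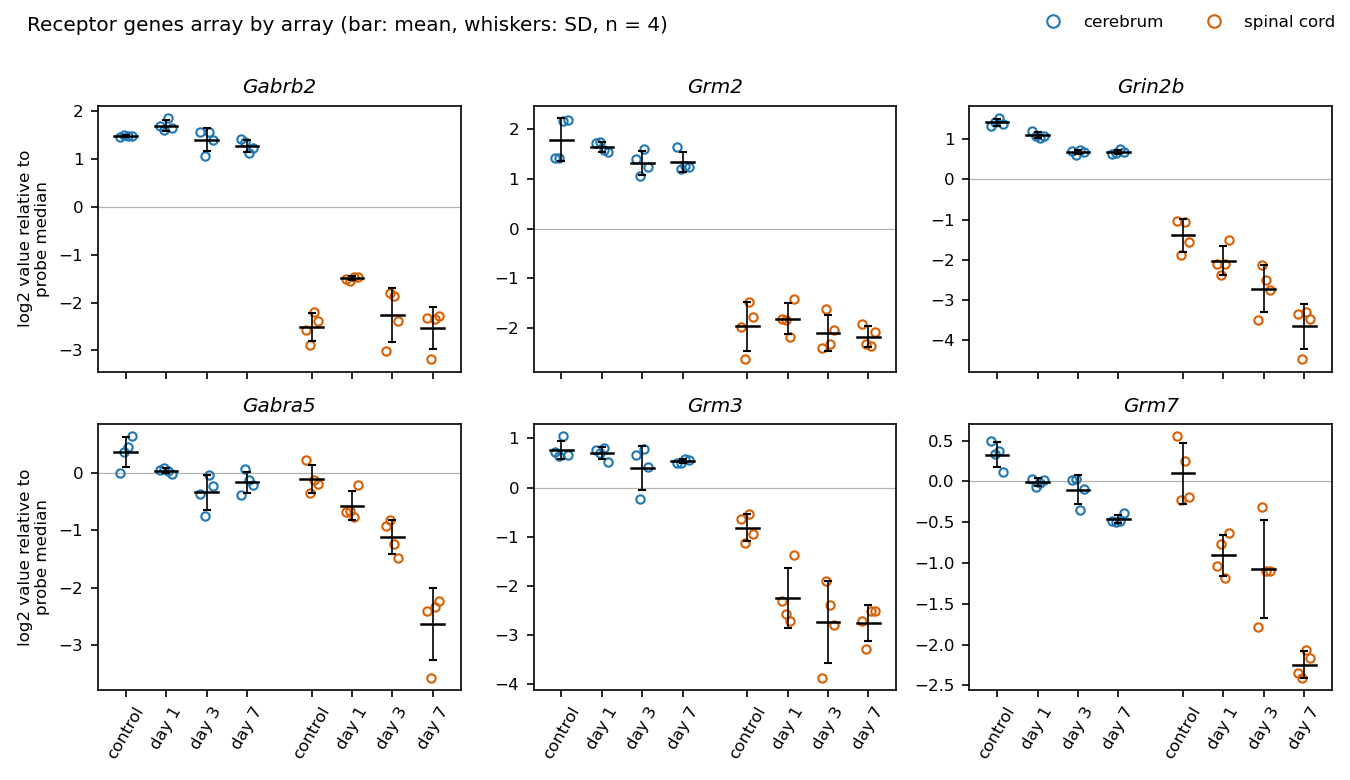
Values of 6 receptor genes in all 32 arrays, as log2 value relative to the probe's median (vertical axis, a scale of its own in each panel) by group (horizontal axis); circles are arrays, bars the mean and whiskers the SD of 4. Gabrb2, Grm2 and Grin2b separate the tissues on every day, while Gabra5 and Grm7 overlap between control tissues and reach -3.58 and -2.41 in the cord on day 7.

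The injured cord was compared with the control cord on each day; the 3 comparisons share the same 4 controls. The number of receptor genes below control was 12 on day 1, 14 on day 3 and 24 on day 7, and the number above was 3, 0 and 0; before limma's p was adjusted, 0 were above on day 3 and on day 7 as well. Of all genes, 31.9% were called on day 1, 24% on day 3 and 34.7% on day 7, with 16.1%, 12.2% and 18.4% lower. The median difference of the receptor genes was -0.22, -0.44 and -0.72, and that of all genes 0.02, -0.08 and -0.10. On day 7, the arrays of 23 receptor genes lay wholly below the controls and those of 0 wholly above, against 24.8% and 19% of all genes. Quantile normalisation on top of the values with the rebuilt offset left 11 genes called on day 7, 10 lower and 1 higher, with a median of -0.30.

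Glutamate and GABA receptor genes were also counted apart in the cord. Of the 22 glutamate receptor genes, 10 were lower on day 1, 12 on day 3 and 15 on day 7. Of the 18 GABA receptor genes, 2, 2 and 9 were lower. Of all genes, 16.1%, 12.2% and 18.4% were lower on these days. The GABA counts of day 1 and day 3 are near or below these shares, and the families were not tested against each other. By pattern, 8 genes were lower on all 3 days (Gria2, Gria4, Grik4, Grik5, Grin2b, Grm3, Grm5 and Grm7), all of them glutamate receptor genes. Another 6 were lower on day 3 and day 7 but did not pass on day 1 (Grin2a, Grin2c, Grin2d, Grin3a, Gabbr2 and Gabra5). On day 7 alone 7 were lower, of which Grid1 is the only glutamate receptor gene and the others are Gabbr1, Gabra4, Gabrg1, Gabrg3, Gabrq and Gabrr1. Gabra2, Grik1 and Grik2 passed on day 1 and day 7 but not on day 3. Gabrb1 passed on day 1 (-0.64 ± 0.23) and not later. Day 1 was tested against 0 and the later days against the bound, so the days are not held to the same test. With the offset taken as exact, 22 receptor genes were lower on day 3 in place of 14, and 26 on day 7 in place of 24. The shares of all genes with these patterns were not counted, and the 3 comparisons share their controls. Whether the pattern counts are unusual is therefore not known.

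In the AMPA family the gene order differed from that between the tissues. Gria4 fell furthest, from 0.99, 0.03, 0.92 and 0.29 in the cord controls to -0.90, -1.54, -1.04 and -1.28 on day 7. The arrays did not overlap on any of the 3 days, and the differences were -0.90 ± 0.19, -1.21 ± 0.19 and -1.75 ± 0.19 (adjusted p = 0.000498, 2.68e-05 and 1.3e-08). Gria2 fell by 0.82, 0.96 and 1.29 on the log2 scale on the 3 days. Gria1 and Gria3, which were 5.87-fold and 5.42-fold lower in the control cord than in the control cerebrum, were at -0.43 ± 0.23 and -0.30 ± 0.22 on day 7 and did not pass (adjusted p = 0.267 and 0.467).

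NMDA subunit genes were the family with most calls on day 3, 5 of 6. Grin2b went from the cord control values above to -2.10, -2.38, -2.11 and -1.52 on day 1, -3.50, -2.14, -2.49 and -2.74 on day 3 and -3.36, -4.48, -3.31 and -3.47 on day 7. The day 1 arrays overlap the controls, the later ones do not, and the differences were -0.64 ± 0.22, -1.34 ± 0.22 and -2.27 ± 0.22 (adjusted p = 0.0287, 7.07e-05 and 1.72e-09). Grin2c, an NMDA subunit gene known from cerebellum and astrocytes, read -0.36, -0.62, -0.29 and -0.73 in the controls and -1.88, -1.26, -1.92 and -2.04 on day 3. This was a 2.43-fold fall (-1.28 ± 0.17, adjusted p = 2.14e-06), and on day 7 the difference was -1.16 ± 0.17. Grin2a fell by 1.11 and 1.27 on day 3 and day 7, Grin2d by 0.82 and 0.94, and Grin3a by 0.77 and 0.76, on the log2 scale. Grin3b, the subunit gene known from motor neurons, was at 0.12, -0.51 and -0.27 on the 3 days and did not pass.

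Among kainate genes, Grik4 and Grik5, whose products need a partner to form a channel, fell on every day, by 0.49, 0.55 and 1.15 for Grik4 and by 0.52, 0.84 and 1.00 for Grik5 on the log2 scale. Grik2 fell to -1.53, -1.76, -1.19 and -1.57 on day 7 from control values of -0.02, -0.23, 0.02 and -0.04, well clear of them (-1.45 ± 0.16, adjusted p = 2.74e-08). Grik1 was the least even: day 3 arrays read 1.11, 1.86, 0.62 and -0.45, across the range of its controls, and day 7 arrays -1.56, -1.06, -0.61 and -0.84, all below it (-2.05 ± 0.42, adjusted p = 0.000247), beside the split of its controls with the Schwann cell and ganglion genes given above. Grik3 did not pass on any day (-0.05, -0.37 and -0.40). Grid1 was 1.25-fold above control on day 1 (0.32 ± 0.12, adjusted p = 0.0319), at -0.12, -0.02, -0.14 and -0.01 against -0.17, -0.69, -0.26 and -0.47, and below it on day 7 (-0.41 ± 0.12, adjusted p = 0.0454). The day 1 call is not kept under quantile normalisation or array weights (adjusted p = 0.0548 and 0.0665), with cord controls 3 and 4 alone (adjusted p = 0.109), or without cord control 2 or 4 or cord day 1 replicate 2 or 4.

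Of the metabotropic genes, Grm3 and Grm7 fell early. Grm3 read -0.64, -1.13, -0.53 and -0.94 in the cord controls, -2.31, -2.56, -2.72 and -1.36 on day 1, -3.87, -1.89, -2.39 and -2.80 on day 3 and -2.70, -3.28, -2.50 and -2.52 on day 7. No injured array overlapped the controls, and the falls were 2.69-fold, 3.80-fold and 3.84-fold (-1.43, -1.92 and -1.94, each ± 0.28; adjusted p = 0.000242, 6.59e-06 and 2.11e-06). Since Grm3 is made by astrocytes too, the astrocyte list is given beside it. Of 10 genes, 4 were higher and 2 lower on day 1, 1 and 1 on day 3, and 3 and 0 on day 7. Their median differences were 0.14, -0.36 and 0.23. Their mean value lay from 0.07 to 0.48 in the cord controls, 0.15 to 0.44 on day 1 and 0.50 to 0.60 on day 7. On day 3 the means were -0.62, 0.42, 0.31 and 0.21, and replicate 1 was also the lowest for Grm3. The part of astrocytes in the Grm3 values was not tested. Grm7, found at presynaptic release sites, went from 0.55, -0.22, 0.25 and -0.19 to -1.04, -0.77, -1.19 and -0.63 on day 1, -1.78, -0.31, -1.10 and -1.10 on day 3 and -2.35, -2.41, -2.06 and -2.16 on day 7. The day 7 arrays all lie below those of the controls and of day 1, a 5.08-fold fall from control (-2.34 ± 0.19, adjusted p = 2.05e-11). For Grm7 the bounds of day 3 and day 7 are 0.218 and 0.146, and these days were not tested against each other. Grm5 fell by 0.54, 0.71 and 1.21 on the 3 days on the log2 scale. Grm4 was above control on day 1 (0.54 ± 0.15, adjusted p = 0.006), though its arrays overlap those of the controls, and at -0.10 and -0.14 later. Grm2 (0.16, -0.13 and -0.20) and Grm6 (0.22, -0.27 and -0.09) did not pass on any day.

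Gabra5, whose receptors lie largely outside synapses and carry tonic inhibition, had the largest mean fall of the receptor genes on day 7. It read 0.23, -0.34, -0.11 and -0.18 in the cord controls, -0.92, -0.82, -1.24 and -1.47 on day 3 and -2.41, -3.58, -2.35 and -2.23 on day 7. Day 3 arrays lay below all controls and day 7 arrays below all day 3 arrays, with differences of -1.01 ± 0.21 and -2.54 ± 0.21 (adjusted p = 0.000929 and 2.7e-11). The day 7 mean leans on replicate 2, at -3.58, which stood apart from the other arrays. Grm7 was close, at -2.34 ± 0.19, and the order of these genes was not tested. Gabra2, a main alpha subunit gene of the cord, fell by 0.93 on the log2 scale on day 1 (adjusted p = 0.0125), from 0.01, -0.28, 0.68 and 0.10 to -1.16, -1.05, -0.64 and -0.38, and was 1.90-fold lower on day 7. Without cord control 3 its day 1 call was not kept (-0.75, adjusted p = 0.0629), and cord day 3 replicates 1 and 2 lay at -1.77 and 0.64. Gabra3, Gabra6 and Gabrd did not pass on any day, and Gabra4 passed on day 7 alone (-0.46 ± 0.14, adjusted p = 0.0445).

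Gabrb2 went the other way from most on day 1. All 4 day 1 arrays, at -1.50, -1.54, -1.47 and -1.46, lay above the cord controls at -2.57, -2.89, -2.20 and -2.39, a 2.03-fold rise (1.02 ± 0.19, adjusted p = 0.00015). On day 3 and day 7 the differences were 0.25 ± 0.19 and -0.02 ± 0.19 and did not pass, and the doubt in its day 3 offset is wide, with a bound of 0.524. The GABA-B pair fell late: Gabbr2 was at 0.12, -0.49 and -1.62 (each ± 0.15) and Gabbr1 at 0.02, -0.20 and -0.83 (each ± 0.10) on the 3 days. Gabbr2 read -2.29, -3.01, -2.20 and -2.19 on day 7 against -0.81, -0.67, -0.90 and -0.85 in controls, a 3.07-fold fall (adjusted p = 7.33e-10) with no overlap. Gabrg1 and Gabrg3 fell on day 7 by 0.68 and 1.07 and Gabrr1 by 0.50 on the log2 scale. Gabrq was at -1.61 ± 0.32 on day 3 and -1.62 ± 0.32 on day 7, but its offset is loose, with bounds of 0.883 and 0.877, and only day 7 passed (adjusted p = 0.0625 and 0.042).

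**Figure D3:**
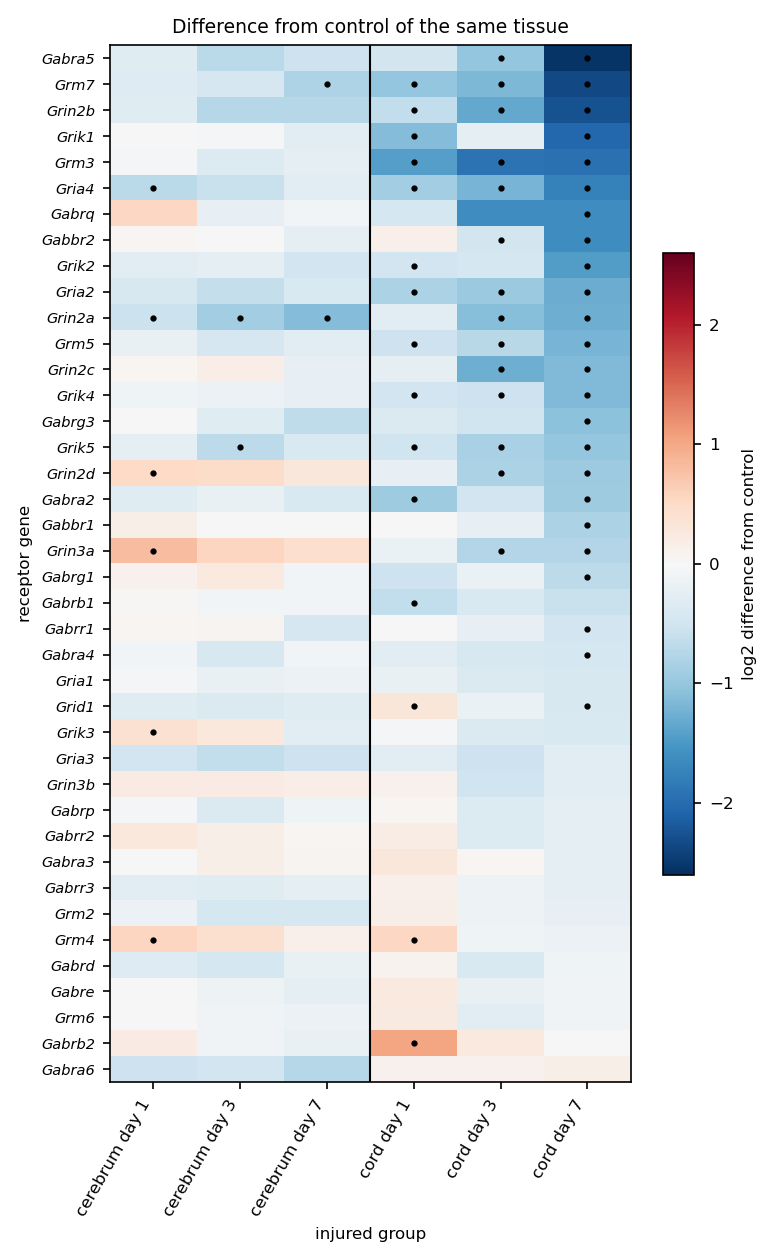
Difference from the control of the same tissue for the 40 receptor genes (rows, ordered by the cord on day 7) in the 6 injured groups (columns), as a colour scale of log2 difference, blue lower and red higher; a dot marks a gene that passed. The cord columns hold 15, 14 and 24 dots and the cerebrum columns 6, 2 and 2; under quantile normalisation the cord column of day 7 would hold 11.

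General neuronal genes were counted in the same cord comparisons, and their link with the receptor values was not tested. Of 10 pan-neuronal genes, 2 were lower and 1 higher on day 1, 5 and 1 on day 3, and 9 and 0 on day 7, with medians of -0.12, -0.47 and -1.01. On day 7, 15 of the 40 receptor genes lay below that median of -1.01. Gabra5 alone, at -2.54, lay below all 10 pan-neuronal genes, of which Syt1, the calcium sensor of vesicle release, was lowest at -2.36. Gabra5 and the mean of the pan-neuronal genes were both lowest in replicate 2. The order of Gabra5 and Syt1 was not tested. Genes of other cell types changed in the same comparisons: of 7 microglia genes 3, 4 and 5 were higher and 1, 0 and 0 lower on the 3 days, with medians of 0.21, 1.56 and 2.73, and of 7 genes of oligodendrocyte precursors 4 were lower on day 1, and 4 higher and 1 lower on day 7, with medians of -0.49 and 1.26. Of 8 endothelial genes 4, 5 and 4 were higher and 3, 1 and 2 lower. The part of these shifts in the receptor values was not tested. The 8 genes of motor and glycinergic neurons had medians of 0.11, -0.22 and -0.30 on the 3 days, and 1 was called, higher on day 1. Cord controls 1 and 2, which held the most muscle RNA, were also left out together. Then 21 receptor genes were lower on day 7 in place of 24, and 7 on day 1 in place of 12. On day 3, 14 were lower, of which 12 are among the first 14. Cord control 3, which was kept, still has a muscle mean of 1.27, and fewer controls also change the counts. The part of muscle RNA in the receptor values can therefore not be read from these counts. On day 3, the mean of the microglia list was -0.05 in replicate 1 and 1.53 to 1.91 in the other 3, and Gria1, Gabrb1 and Grm3 were lowest in that replicate.

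In the cerebrum the same comparisons gave few calls. On day 1, 4 receptor genes were higher and 2 lower, on day 3 and day 7 0 were higher and 2 lower, where 17.1%, 8.42% and 8.16% of all genes were called. Of all genes, 8.91% were called higher and 8.22% lower on day 1, 4.41% and 4.01% on day 3 and 5.28% and 2.88% on day 7. Before adjustment of limma's p, 3 receptor genes were higher and 11 lower at p under 0.05 on day 3, and 0 and 10 on day 7. These shares of the receptor genes, 15%, 5% and 5%, are near or below the shares of all genes. The medians were -0.03, -0.20 and -0.24 against -0.01, -0.03 and -0.05 for all genes, and quantile normalisation turned the first to 0.08. No GABA receptor gene passed limma's adjusted p in the cerebrum on any day; before adjustment 1 higher and 3 lower were under 0.05 on day 1, 0 and 3 on day 3 and 0 and 4 on day 7.

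Grin2a, the NMDA subunit gene that rises in the maturing forebrain, was the gene that passed on all 3 days. It read 1.19, 1.11, 1.58 and 1.44 in the cerebrum controls, 0.85, 0.80, 0.85 and 0.61 on day 1, 0.32, 0.23, 0.61 and 0.51 on day 3 and 0.51, -0.06, 0.14 and 0.22 on day 7. No injured array reached the controls, and the differences were -0.55, -0.91 and -1.13, each ± 0.17 (adjusted p = 0.0212, 0.00113 and 6.62e-05). Its day 1 call was not kept under quantile normalisation (-0.42, adjusted p = 0.0722), with cerebrum controls 1 and 2 alone (-0.37, adjusted p = 0.279), or without cerebrum control 3 or 4 or cerebrum day 1 replicate 4. Its day 3 call was not kept with cerebrum controls 1 and 2 alone (-0.73, adjusted p = 0.0579). Grin2b was at -0.32, -0.74 and -0.74 with no overlap on any day, and did not pass (adjusted p = 0.361, 0.0595 and 0.0705).

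Of the other glutamate receptor genes, Grik5 fell on day 3, from 0.92, 0.77, 0.88 and 0.86 to 0.05, 0.06, 0.34 and 0.25 (-0.68 ± 0.11, adjusted p = 0.000409), and was at -0.40 on day 7 (adjusted p = 0.104). Gria4 fell on day 1, from 0.31, 0.22, 0.47 and 0.25 to -0.16, -0.49, -0.25 and -0.64 (-0.70 ± 0.19, adjusted p = 0.0095), and did not pass later. Grm7 fell on day 7, from 0.49, 0.34, 0.37 and 0.12 to -0.49, -0.49, -0.48 and -0.39. The 4 day 7 arrays lie close together and below every control (-0.79 ± 0.19, adjusted p = 0.0164), and the call was not kept without cerebrum control 1 (-0.74, adjusted p = 0.0515), with cerebrum controls 3 and 4 alone (adjusted p = 0.132), with the allowance doubled (adjusted p = 0.133) or with the values as deposited (-0.49, adjusted p = 0.0941). Grin2a and Grm7 are the receptor genes lower in both tissues on day 7.

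The 4 genes above control in the cerebrum on day 1 were Grin3a, Grm4, Grin2d and Grik3. Grin3a, an NMDA subunit gene that lowers calcium entry, read -0.68, -0.27, -0.87 and -0.48 in the controls and 0.19, 0.18, 0.26 and 0.33 on day 1 (0.81 ± 0.24, adjusted p = 0.0187). Grm4 read -0.10, -0.45, -0.36 and -0.31 against 0.22, 0.15, 0.03 and 0.60 (0.55 ± 0.15, adjusted p = 0.00918), and Grin2d -0.27, -0.41, -0.92 and -0.65 against -0.22, 0.06, 0.00 and -0.02 (0.52 ± 0.15, adjusted p = 0.0184). None of these overlapped the controls. The Grm4 call was not kept without cerebrum day 1 replicate 4 (0.44, adjusted p = 0.0531), that of Grin2d without cerebrum control 3 or cerebrum day 1 replicate 2 (adjusted p = 0.0932 and 0.0515), and that of Grin3a without cerebrum control 3 (adjusted p = 0.0663). Grik3 was 0.40 ± 0.14 above (adjusted p = 0.043). Beside them, 7 of 10 thalamic genes were higher on day 1, 6 on day 3 and 5 on day 7, and 3, 4 and 3 of 7 cortical excitatory markers were lower; genes of other cell types moved too. On day 1, 7 of 9 genes of hypothalamus and pituitary were lower (median -0.69), and 8 of 10 astrocyte genes (0.54), 6 of 7 oligodendrocyte genes (0.63), 4 of 7 microglia genes (1.87) and 4 of 8 endothelial genes (0.55) were higher. On day 3 and day 7, 4 and 2 of the hypothalamus and pituitary genes were lower, and 4 and 5 of the microglia genes and 2 and 3 of the astrocyte genes were higher. The part of these lists in the receptor values was not tested. The direction of all 6 day 1 calls was kept with cerebrum controls 1 and 2 alone, but 0 of the 6 passed, among them Grin2d at 0.30 (adjusted p = 0.334); leaving out cerebrum control 3 alone left 3 calls. On day 7, leaving out cerebrum control 1 left 1 call.

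Whether cord and cerebrum responded differently was tested as the difference of the 2 differences from control, in which the offset of the later days drops out. On day 1, 1 receptor gene was higher and 2 lower in this measure, on day 3 0 and 7, and on day 7 1 and 17, where 11.3%, 9.27% and 27.6% of all genes were called. By direction, 4.7% of all genes were higher and 6.58% lower on day 1, 4.08% and 5.19% on day 3 and 13% and 14.6% on day 7. Before adjustment of limma's p, 0 receptor genes were higher and 12 lower on day 3. The medians were -0.18, -0.28 and -0.47, against 0.03, -0.01 and -0.01 for all genes. Quantile normalisation gave 5 higher and 5 lower on day 7 and a median of 0.05, so that the balance of directions on that day depends on the scaling. Of the 17 genes with a lower response in the cord on day 7, 13 were glutamate receptor genes and 4, Gabbr1, Gabbr2, Gabra5 and Gabrq, were GABA receptor genes. Single libraries decided the smaller counts: on day 1 the total of 3 became 1 without cord day 1 replicate 2 and 5 without cord day 1 replicate 4, and on day 3 the total of 7 became 4 without cord control 1 and 11 without cord control 2.

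Grm3 and Grin2d differed on all 3 days. For Grm3, the cord was at -1.43, -1.92 and -1.94 while the cerebrum was at -0.06, -0.36 and -0.23, so that the responses differed by -1.37, -1.56 and -1.71, each ± 0.40 (adjusted p = 0.0228, 0.0106 and 0.00135). The day 1 call was not kept without cord day 1 replicate 2 or 3, or with either pair of cerebrum controls alone. Under quantile normalisation the day 7 value was -0.61 and did not pass (adjusted p = 0.255). For Grin2d, the cerebrum was at 0.52, 0.48 and 0.30 from control, of which day 1 passed, and the cord at -0.21, -0.82 and -0.94, of which day 3 and day 7 passed. The responses differed by -0.73, -1.30 and -1.24, each ± 0.22 (adjusted p = 0.0268, 0.000309 and 5.54e-05). The day 1 call was not kept with cerebrum controls 1 and 2 alone (adjusted p = 0.192), or without cerebrum control 3 or 4, cerebrum day 1 replicate 2, cord control 3 or cord day 1 replicate 1 or 2.

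The NMDA family held most of the day 3 differences. Grin2c differed by -1.44 ± 0.24 (2.72-fold, adjusted p = 0.000264), since the cerebrum was at 0.16 and the cord at -1.28, and Grin3a by -1.33 ± 0.34 (adjusted p = 0.0113). Grin3b (-0.73 ± 0.21) and Grik3 (-0.64 ± 0.19) differed on day 3 and not on the other days. Gabrq differed by -1.40 ± 0.46 on day 3 (adjusted p = 0.0496), and this call, close to the threshold, was lost under many settings. The difference was -0.34 with controls 1 and 2 alone (adjusted p = 0.559), -2.45 with controls 3 and 4 alone, and -0.52 under quantile normalisation (adjusted p = 0.539). The call was also lost with array medians set to 0, array weights, a robust variance prior or cord controls 3 and 4 alone (adjusted p = 0.0581, 0.0512, 0.0803 and 0.117). It was lost as well when most of the arrays were left out singly, such as cerebrum control 3 (-0.99, adjusted p = 0.135) or cord day 3 replicate 1 (-1.21, adjusted p = 0.105).

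By day 7, Gabra5 differed most, by -2.01 ± 0.29 (4.03-fold, adjusted p = 4.93e-06). Its cerebrum arrays, at -0.38, 0.08, -0.13 and -0.21, were at -0.53 ± 0.21 from control, which did not pass (adjusted p = 0.232), and its response difference under quantile normalisation was -1.0005 and still passed (adjusted p = 0.00762). Grm7, Grin2b, Gria4 and Gabbr2 were at -1.55, -1.53, -1.46 and -1.38. Grik1 differed by -1.78 ± 0.59 (adjusted p = 0.0233), and was not called without cord control 2 (-1.40, adjusted p = 0.0661) or 4, or without cord day 7 replicate 1, under quantile normalisation (adjusted p = 0.0912) or with cerebrum controls 1 and 2 alone (adjusted p = 0.103). It rests on the same cord controls that the Schwann cell and ganglion genes split. Gabra6 was the gene with a higher response in the cord (0.90 ± 0.34, adjusted p = 0.0487): the cord was at 0.16 and the cerebrum at -0.74 from control, neither of which passed. It was not called under quantile normalisation (1.14, adjusted p = 0.117), array weights or a robust variance prior (adjusted p = 0.0557 and 0.0621), with cerebrum controls 3 and 4 (0.49, adjusted p = 0.352) or cord controls 3 and 4 alone (adjusted p = 0.0572), or without any of cerebrum controls 1 and 2, cord controls 2, 3 and 4 and the 8 day 7 arrays. Grin2a, which fell in both tissues, differed by -0.14 ± 0.24 (adjusted p = 0.714), and Gria1 and Gria3 by -0.27 ± 0.33 and 0.24 ± 0.31.

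**Figure D4:**
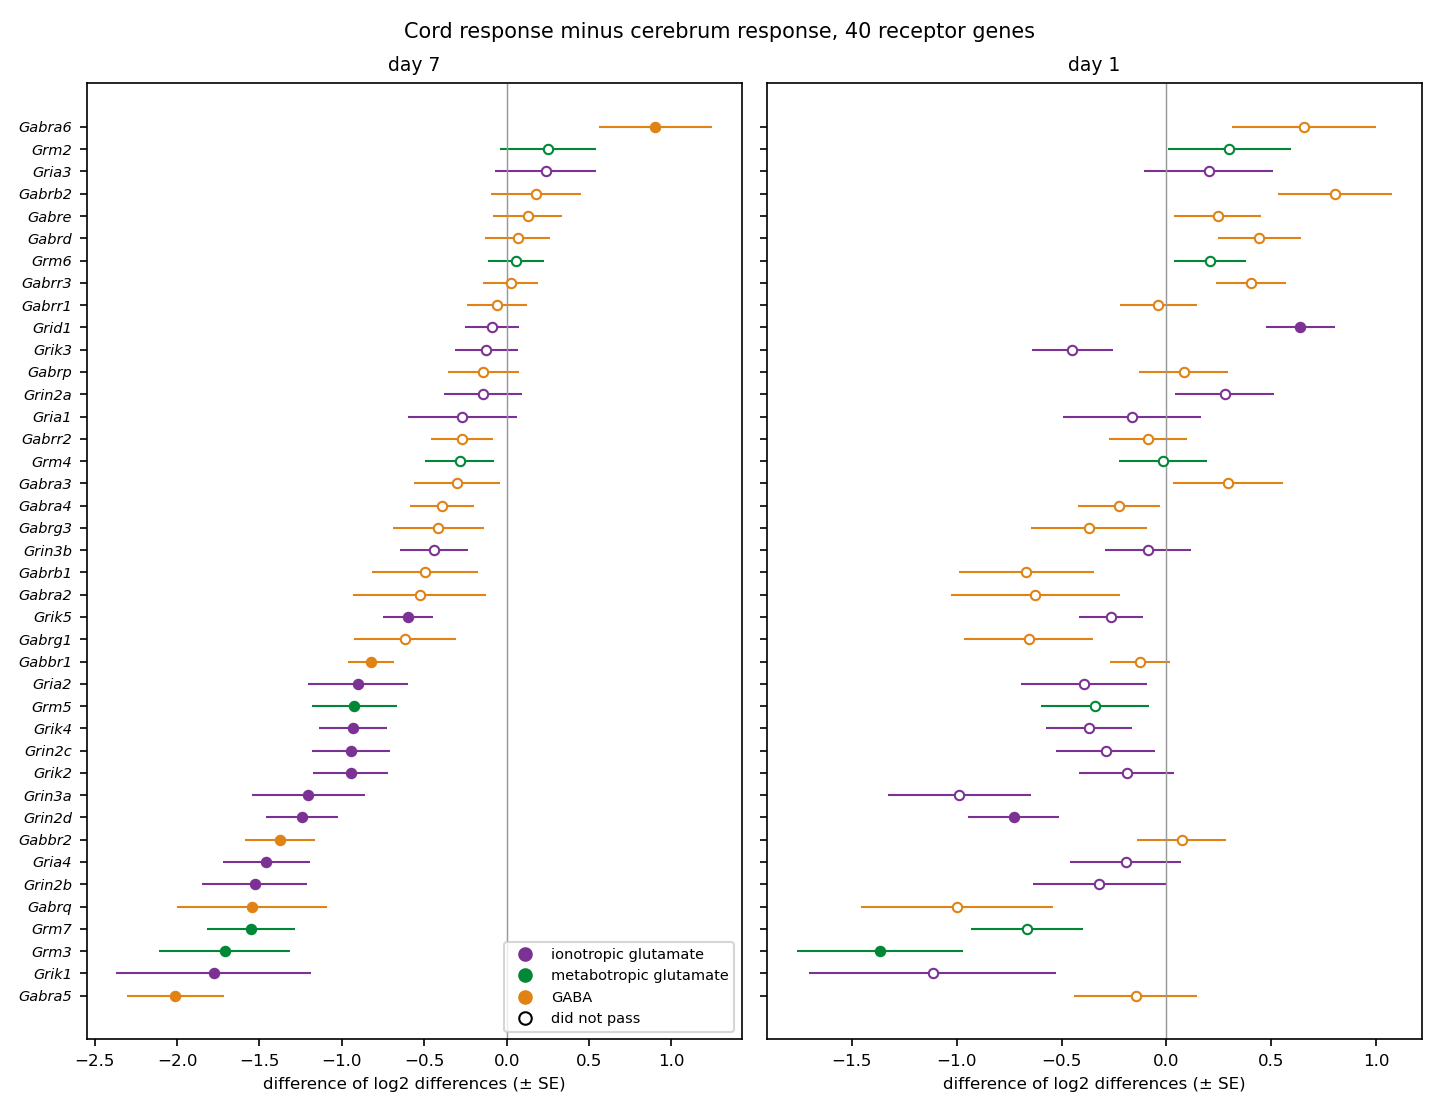
Response of the cord minus response of the cerebrum, each against its own control, for the 40 receptor genes on day 7 (left) and day 1 (right), as difference of log2 differences ± SE, ordered by day 7; filled points passed. On day 7 the points run from -2.01 for Gabra5 to 0.90 for Gabra6 and 18 are filled, with 17 to the left of 0 (5 and 5 under quantile normalisation); on day 1 3 are filled.

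Within the injured tissues the cord lay below the cerebrum for 23 receptor genes on day 1, 28 on day 3 and 27 on day 7, and above it for 1, 0 and 0, where 36.1%, 37.7% and 47.1% of all genes were called. By direction, 18.7%, 18.9% and 24.3% of all genes were lower and 17.3%, 18.8% and 22.8% higher. The medians were -0.70, -0.78 and -1.36, against 0.06, -0.05 and -0.03 for all genes. Under quantile normalisation the medians of the receptor genes were -0.79, -0.62 and -0.78, so that the larger median of day 7 depends on the scaling. In all, 20 genes were lower in the cord in controls and on every day, among them Gria1, Gria2 and Gria3, Grin2a, Grin2b and Grin2c, Grik2, Grik3 and Grik5, Grm2, Grm3 and Grm5, and both GABA-B genes. The share of all genes lower throughout was not counted. Grin2b had the largest difference on day 7, -4.33 ± 0.22 (20.1-fold), and Gabrb2 and Gria2 followed at -3.81 ± 0.19 and -3.53 ± 0.21. The 1 gene above was Grin3b on day 1 (0.62 ± 0.15, adjusted p = 0.000966). Of the genes higher in the control cord, Grin2d was 0.17, -0.40 and -0.35 on the 3 days and Gabrq 0.22, -0.18 and -0.33, with Grin2d called lower on day 3 (adjusted p = 0.0375). Gabre, Gabrg1, Gabrp, Gabrr3 and Grm6 were called in none of the 4 comparisons between tissues.

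In all, 12 of the 40 genes were called in none of the 6 comparisons with control: Gabra3, Gabra6, Gabrd, Gabre, Gabrp, Gabrr2, Gabrr3, Gria1, Gria3, Grin3b, Grm2 and Grm6. The share of all genes called in none of them was not counted. A probe with little signal also gives small differences, and since the values carry no level, a gene that is low everywhere and a gene that did not change cannot be told apart.

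Several of the GABA-A genes are neighbours in the RefSeq gene order. Gabra2 and Gabrg1, Gabra4 and Gabrb1, Gabra6 and Gabrb2, Gabra5 and Gabrg3, Gabra3 and Gabrq, and Gabrr1 and Gabrr2 follow each other with 0 listed genes between. Neighbours shared some calls and not others. Gabra5 and Gabrg3 both fell in the cord on day 7, with differences of -2.54 and -1.07, and so did Gabra2 and Gabrg1, with the values given above. In that comparison 24 of the 40 receptor genes were lower. Whether neighbours share calls more often than other pairs was not tested. Gabrb2 was 2.03-fold above control on day 1 beside Gabra6 at 0.12, which did not pass, and Gabrq fell on day 7 beside Gabra3 at -0.23, which did not pass (adjusted p = 0.578).

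Genes that serve these receptors were counted in lists by function. Of 18 measured auxiliary subunit genes, 11 were lower and 1 higher in the control cord than in the control cerebrum, and on the 3 days in the cord 5, 8 and 12 were lower and 1 higher each time. Cacng2 (stargazin), which carries AMPA receptors to the synapse, was at -0.35 between controls (adjusted p = 0.117) and fell by 1.78 on the log2 scale in the cord on day 7, and Neto1, a kainate and NMDA receptor partner, fell by 1.30. Kctd12b, of the GABA-B auxiliary family, was the exception that rose on day 7, by 1.58 ± 0.14 in the cord and 0.76 ± 0.14 in the cerebrum. Of 20 scaffold genes, 16 were lower and 2 higher in the control cord, and 6, 11 and 16 were lower and 1 higher on the 3 days in the cord. Dlg2, Dlg4 and Shank1 of the excitatory density fell by 1.85, 1.41 and 1.90 on day 7 on the log2 scale, and Gphn, the gephyrin gene that anchors inhibitory receptors, by 1.21. Nlgn2, the adhesion gene of inhibitory synapses, was above control on day 1 (0.97 ± 0.19). In the cerebrum 6, 7 and 7 scaffold genes were lower and 0 higher, with Homer1 at -1.01 ± 0.16 on day 7.

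On the transmitter side, 11 release and uptake genes and 4 of 8 synthesis genes were measured. Slc17a7, the vesicular glutamate transporter of cortex, was lower in the control cord (-6.12 ± 0.31) and Slc17a6, that of thalamus and cord, higher (1.53 ± 0.21). In the cord on day 7, 4 of the 11 were lower and 2 higher, with Slc17a6 at -1.07 ± 0.21, Slc32a1, which loads GABA into vesicles, at -1.13 ± 0.12 and the GABA transporter gene Slc6a11 at -1.45 ± 0.22. In the cerebrum 3 were higher and 0 lower on day 7, Slc17a6 at 1.44 ± 0.21 and Slc6a11 at 0.82 ± 0.22 among them. Gad1 and Gad2, which make GABA, fell by 2.15 and 0.77 on the log2 scale in the cord on day 7 (adjusted p = 3.45e-08 and 0.00578) and did not pass in the cerebrum (-0.69 and 0.39, adjusted p = 0.145 and 0.447).

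**Figure D5:**
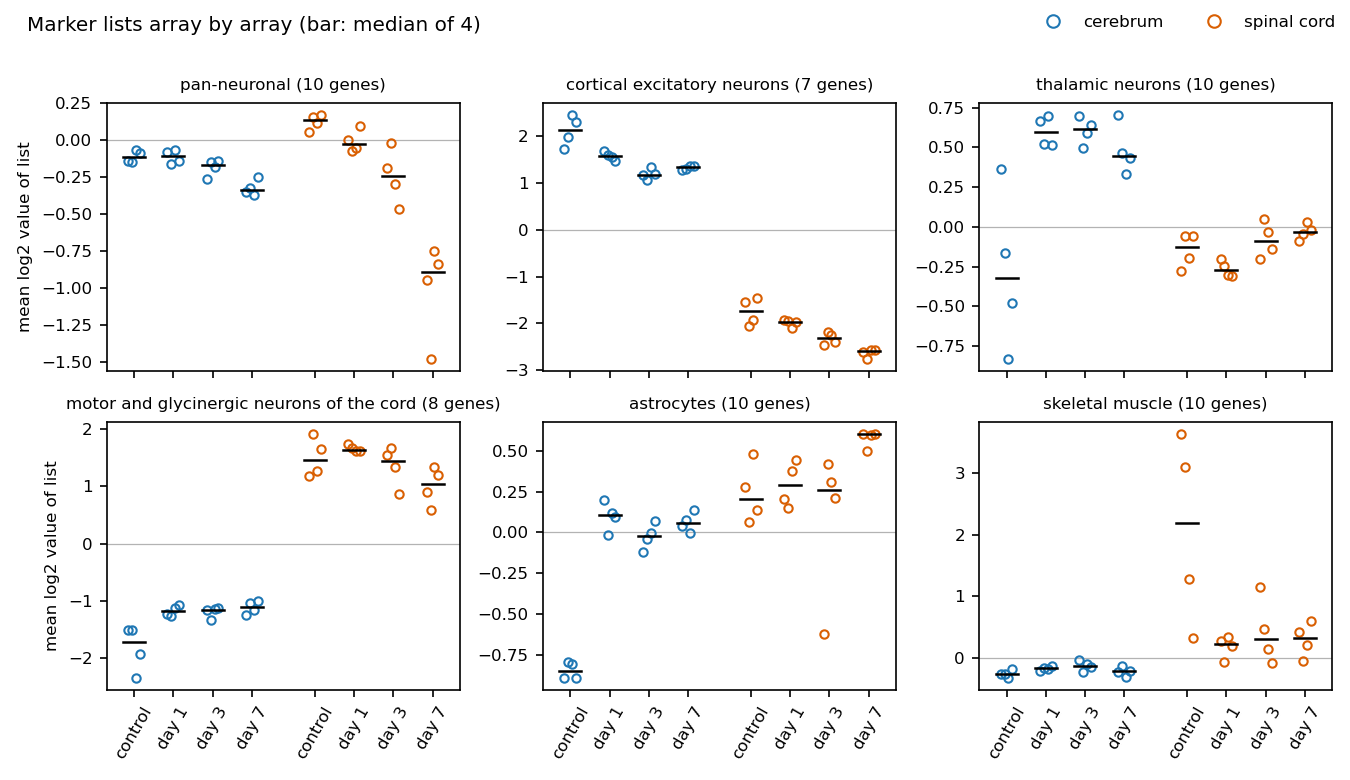
Mean log2 value of 6 marker lists in all 32 arrays (vertical axis, a scale of its own in each panel) by group (horizontal axis); circles are arrays and bars the median of 4. The pan-neuronal list lies from 0.05 to 0.17 in the cord controls and from -1.48 to -0.75 in the cord on day 7, the thalamic list separates cerebrum controls 2 to 4 from the injured cerebrum, and the muscle list is above 3 in cord controls 1 and 2.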

How the data were processed

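RNA of 32 arrays was measured. The values that the authors deposited are log2 values, from -5.58 to 8.04, with array medians from -0.0553 to 0.0333; per the labels' protocols, TRIzol was used to extract RNA, of which 10 ng per sample received a biotin label. How the authors summarised probes, and with which software, is not given here by any source. Precision is limited by the number of arrays.

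Each probe's values turned out to be centred. Over the 16 arrays of controls and day 1 the median is 0 in 100% of 22206 probes. Day 3 (8 arrays) and day 7 (8 arrays) had centres of their own, each with the 8 controls included, a rule that matched in 86.8% of 5648 and 86.4% of 5148 probes that could be tested, to within 1e-05. The offset that makes the median of controls and later arrays 0 was found per probe. It was a single value in 77.9% and 80.0% of probes and otherwise a range. The bound for day 3 and day 7 against control is the range's half-width plus an allowance of 0.120 and 0.145, the 99th percentile of the shortfall in probes that did not match. All other comparisons were tested against 0.

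Of the probes, 19572 carry 1 gene symbol in the platform table, for 19505 genes; 55 genes have several probes, which were averaged. The labels give the groups but no replicate numbers, so arrays were numbered by accession order. The 13 comparisons were taken from 1 limma fit (lmFit, eBayes) of the 8 group means, which leaves 24 residual degrees of freedom, run in limma 3.58.1 under R 4.3.3 (matrixStats 1.5.0). Tables and plots used pandas 2.3.3, numpy 2.4.6 and matplotlib 3.10.9 in Python 3.11.15. The script was checked on simulated data centred by the same rule, which cannot show whether that rule holds for every probe here. The median residual SD over all genes was 0.184.

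The receptor genes and the gene lists were chosen with earlier results of these data known. All arrays are given for up to 3 called receptor genes each way per comparison, the largest whose arrays do not overlap (for differences of responses, the largest 3 each way), and all receptor genes may be named. Array values of Grik2, Gabbr2 and, in the cord, Gria4, and those that the rule gives for a gene in one comparison but that are printed in another, were chosen after they were seen. Alternatives were quantile normalisation, array medians set to 0, array weights, the probe with the largest SD, a robust variance prior, values as deposited, the offset taken as exact, pairs of controls left out, and each array left out in turn. A doubled allowance was added after seeing the data.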

Additional observations from a re-analysis of the deposited data

Results flagged for a closer look

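In 14 of the 320 groups of 4 arrays formed by the receptor genes, the highest or lowest array stood apart from the other 3 by Dixon's test; chance does this in about 1 of 20 groups. Cord day 7 replicate 2 was the lowest array of its group for Gabbr2 at -3.01, Gabra5 at -3.58, Gabrb2 at -3.19 and Grin2b at -4.48. The mean of its pan-neuronal genes was also lowest, -1.48 against -0.94 to -0.75 in the other 3. Cord day 3 replicate 1 was lowest for Gabrb1 at -2.02 and Gria1 at -3.07; its array weight is 0.225. Cerebrum day 3 replicate 2 stood apart for Gria4 at -0.69 and Grik4 at 0.16. The remaining 6 were Gabrb1 at 0.23 in cerebrum day 1 replicate 4, Gabre at 0.025 in cord day 1 replicate 2, Gabrp at -0.25 in cord control replicate 3, Gabrr3 at 0.0069 in cord day 3 replicate 2, Grm2 at 1.63 in cerebrum day 7 replicate 1 and Grm7 at -0.39 in cerebrum day 7 replicate 4.

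The response of the cord differed from that of the cerebrum in 28 pairs of gene and day by the test of the difference itself in the limma fit, with an adjusted p under 0.05. The differences of log2 differences on day 1 were Grm3 -1.37, Grin2d -0.73 and Grid1 0.64. On day 3 they were Grm3 -1.56, Grin2c -1.44, Gabrq -1.40, Grin3a -1.33, Grin2d -1.30, Grin3b -0.73 and Grik3 -0.64. On day 7 they were Gabra5 -2.01, Grik1 -1.78, Grm3 -1.71, Grm7 -1.55, Gabrq -1.55, Grin2b -1.53, Gria4 -1.46, Gabbr2 -1.38, Grin2d -1.24, Grin3a -1.20, Grik2 -0.95, Grin2c -0.94, Grik4 -0.93, Grm5 -0.92, Gria2 -0.90, Gabbr1 -0.82, Grik5 -0.60 and Gabra6 0.90.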

How the results depend on the processing

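No paired analysis was possible because the labels carry no replicate numbers. Counts of receptor genes called that moved by over 1.5 times are given here. For cerebrum day 1, 6 became 10 with array weights and 1, which is none of the 6, with cerebrum controls 1 and 2 alone. For cerebrum day 3, 2 became 8 under quantile normalisation, 8 with values as deposited (4 higher, 4 lower), 12 with the offset taken as exact, 8 with array weights, and 5 and 1 with cerebrum controls 3 and 4 or 1 and 2 alone. For cerebrum day 7, 2 became 5, 7 (3 higher, 4 lower), 9 and 4 under the first 4 of these settings, 1 with cerebrum controls 3 and 4 alone and 1 with the doubled allowance. For the cord, 15 on day 1 became 8 with cord controls 3 and 4 alone, 14 on day 3 became 22 with the exact offset, and 24 on day 7 became 11 under quantile normalisation, 10 of them among the 24. For the difference of responses, 3 on day 1 became 5 under quantile normalisation, 7 with array weights and 0 with cerebrum controls 1 and 2 alone, and 18 on day 7 became 10 under quantile normalisation, 5 of them among the 18. The cause was not tested.

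With each array left out in turn, the counts ran from 25 to 28 for the control tissues, 3 to 6, 2 to 3 and 1 to 3 for the cerebrum on day 1, 3 and 7, 10 to 15, 10 to 17 and 17 to 24 for the cord, and 1 to 5, 4 to 11 and 16 to 18 for the difference of responses. For cord against cerebrum they ran from 22 to 24, 26 to 29 and 25 to 28. The low ends came without cerebrum control 3 (3 on day 1), cerebrum control 1 (1 on day 7), cord day 1 replicate 2 (1) and cord control 1 (4 on day 3), and the high ends of the last without cord day 1 replicate 4 (5) and cord control 2 (11). No alternative turned the sign of any of the 45 differences for which the rule gives array values. Signal over background is not in the values, so dim probes could not be told from steady ones.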
